A study of Mus musculus with 2 samples.

Results

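The 10 genes described here are Cldn5, Esam, Cdh5, Pecam1, Flt1, Kdr, Tek, Slc2a1, Abcb1a and Mfsd2a, a fixed set of endothelial and blood-brain barrier genes. They were found by gene name among 45578 genes in the table, and the counts of their 40 annotated transcripts were summed per gene. The footprints came from the brains of 2 mice of a single group at postnatal day 5, and each brain gave 1 polysome library. Both mice were of genotype Smn+/-; SMN2tg/0 on the FVB strain. These controls therefore carry 1 disrupted copy of Smn and a human SMN2 transgene, so neither library is from a wild-type mouse. The libraries held 1866831 footprints (replicate 1) and 5261878 footprints (replicate 2), a ratio of 2.82.

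Brain capillaries are lined by endothelial cells that are sealed to each other by tight junctions, and this seal, together with low vesicular transport and selective carriers, forms the blood-brain barrier. Growth of these vessels is steered by vascular endothelial growth factor (VEGF) and angiopoietins through receptor tyrosine kinases on the endothelial surface, and their barrier character depends on Wnt ligands made by neural cells. The set spans 3 roles: 4 genes of cell-cell contact, 3 receptors and 3 transporters. A ribosome footprint is a stretch of mRNA covered by a ribosome, so a gene's count follows both its mRNA amount and how densely ribosomes load it. In a whole brain, fewer endothelial cells and less RNA per cell cannot be told apart.

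All 10 genes had footprints in both libraries and all 10 reached the mean count of 10 required for testing. Together they took 938 footprints, or 0.0502% of the total, in replicate 1 (Clopper-Pearson 95% interval 0.0471 to 0.0536). In replicate 2 they took 2518 footprints, or 0.0479% (0.0460 to 0.0498), and the mean share was 0.0490% ± 0.00169 (SD, n = 2). The intervals overlapped. Intervals cover counting error only and leave out differences between animals. PCR copies are not independent molecules, so the intervals may also be too narrow.

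Levels between genes were compared per length. Coding density is the level in CPM (the count scaled to a common library total) divided by the kilobases of the longest annotated coding sequence of the gene. Footprints were counted over whole transcripts, so the density includes any that lay outside the coding sequence. Coding lengths ran from 657 nucleotides for Cldn5 to 4038 for Kdr, with a median of 2277 against 1413 for all coding genes tested. The mean coding density covered a 78.8-fold range, from Cldn5 at the top to Abcb1a at the bottom, while the mean level in CPM covered a 13.5-fold range. The order by mean coding density was Cldn5, Slc2a1, Mfsd2a, Esam, Cdh5, Kdr, Pecam1, Flt1, Tek and Abcb1a. The median of the 10 genes was 15.1 CPM per kb, beside 23.5 for the 13349 coding genes tested, and 4 of the 10 lay above the latter value. Of the 9 neighbouring pairs in this order, 7 had replicate values that did not overlap. The 2 pairs that overlapped were Kdr with Pecam1 and Pecam1 with Flt1, so these 3 genes have no settled order. Other positions depended on the transcripts counted. Esam lay above Mfsd2a on coding transcripts alone, at 25.7 and 23.2 CPM per kb, but below it on the highest transcript alone, at 14.9 and 20.2. Cdh5 lay above Esam on the highest transcript alone, at 18.99 and 14.9, but below it on coding transcripts alone, at 18.99 and 25.7. The counting intervals of neighbours were apart in 4 pairs in replicate 1 and in 7 pairs in the deeper replicate 2.

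**Figure D1:**
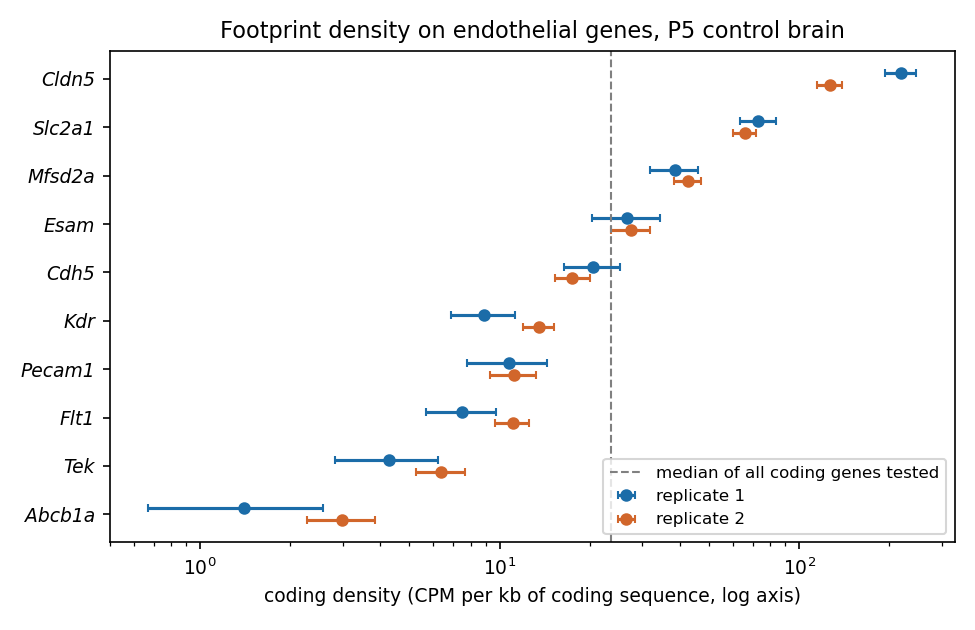
Coding density of the 10 genes on a log axis in CPM per kb of coding sequence, with replicate 1 in blue, replicate 2 in orange and Clopper-Pearson 95% counting intervals as bars. Cldn5 lies at the top, at 219 and 126, and Abcb1a at the bottom, at 1.40 and 2.98; the dashed line is the median of all coding genes tested, 23.5.

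Among the genes of cell-cell contact, Cldn5 (ENSMUSG00000041378) encodes claudin-5, the main strand-forming protein of brain endothelial tight junctions. Its single annotated transcript, of 1414 nucleotides, held 268 footprints in replicate 1 and 437 in replicate 2. These gave 144 CPM (127 to 162) and 83.1 CPM (75.4 to 91.2), and the intervals did not overlap. Its coding density was 219 and 126 CPM per kb, with a mean of 172 ± 65.1 (SD, n = 2), at percentile 91.5 of coding genes. In coding density Cldn5 stood above every other gene of the set in each library, whereas in CPM Slc2a1 was higher in replicate 2. The density of Cldn5 was 2.99 times that of Slc2a1, the next in order, in replicate 1 and 1.92 times in replicate 2.

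Cdh5 (ENSMUSG00000031871) encodes VE-cadherin, the adhesion molecule of endothelial adherens junctions. It had 90 and 217 footprints, or 48.2 and 41.2 CPM, on a single transcript. Its coding density was 20.5 and 17.5 CPM per kb, with a mean of 18.99 ± 2.09 (SD, n = 2). Esam (ENSMUSG00000001946), an immunoglobulin-like adhesion molecule at tight junctions that platelets also carry, had 59 and 171 footprints, or 31.6 and 32.5 CPM. Its coding density was 26.7 and 27.4 CPM per kb, so the replicates lay close together at a mean of 27.05 ± 0.533 (SD, n = 2). Pecam1 (ENSMUSG00000020717), which encodes the adhesion molecule CD31 of endothelium, platelets and leukocytes, had 44 and 129 footprints. This corresponded to 23.6 and 24.5 CPM and to a coding density of 10.7 and 11.1 CPM per kb. Cldn5 was thus 8.19 times as dense as Esam in replicate 1 and 4.61 times in replicate 2, and 10.7 and 7.22 times as dense as Cdh5.

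The receptors had long coding sequences and low coding densities. Kdr (ENSMUSG00000062960) encodes the VEGF receptor that drives endothelial growth. It had 67 and 287 footprints, or 35.9 CPM (27.8 to 45.6) and 54.5 CPM (48.4 to 61.2), and these intervals did not overlap. Flt1 (ENSMUSG00000029648) encodes a VEGF receptor with high affinity and weak kinase activity that limits the ligand available to the Kdr product. It had 56 and 233 footprints, or 29.997 and 44.3 CPM, and the intervals of 22.7 to 38.95 and 38.8 to 50.3 touched. Tek (ENSMUSG00000006386) encodes the angiopoietin receptor Tie2, and it had 27 and 113 footprints, or 14.5 and 21.5 CPM.

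Mean coding density was 11.2 ± 3.27 CPM per kb for Kdr, 9.28 ± 2.52 for Flt1 and 5.33 ± 1.47 for Tek (SD, n = 2), at percentiles 30.5, 25.96 and 15.2. On coding transcripts alone the density of Kdr was 7.005. All 3 receptors had higher values in replicate 2. The ratios between them differed little between the libraries: Kdr was 1.19 times as dense as Flt1 in replicate 1 and 1.22 times in replicate 2. Flt1 was 1.75 and 1.74 times as dense as Tek. In replicate 1 the ratios carry the counting error of 67, 56 and 27 footprints for Kdr, Flt1 and Tek. There the counting intervals of Flt1 and Tek overlapped. These pairs were chosen after the values had been seen and are given as a description.

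The transporters covered nearly the whole range of the set. Slc2a1 (ENSMUSG00000028645) encodes the glucose transporter GLUT1, which carries glucose across the barrier and is also made by red cells and glia. It had 202 and 512 footprints, or 108 and 97.3 CPM, and a coding density of 73.2 and 65.8 CPM per kb. Its mean density of 69.5 ± 5.21 (SD, n = 2) lay at percentile 78.2, and it was 109.8 when the coding length was averaged over coding transcripts by count. Mfsd2a (ENSMUSG00000028655) encodes a lysophospholipid transporter that supplies the brain with docosahexaenoic acid and holds vesicular transport low. It had 115 and 359 footprints, or 61.6 and 68.2 CPM, and a coding density of 38.4 and 42.5 CPM per kb, at percentile 64.8. On coding transcripts alone its mean level was 37.2 CPM in place of 64.9, and its mean density 23.2 in place of 40.4.

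Abcb1a (ENSMUSG00000040584) encodes P-glycoprotein, the drug efflux pump of the mature barrier, and was the least dense of the 10. Replicate 1 held 10 of its footprints and replicate 2 held 60. They gave 5.36 CPM (2.57 to 9.85) and 11.4 CPM (8.70 to 14.7), and the intervals overlapped. Its mean coding density of 2.19 ± 1.12 CPM per kb (SD, n = 2) lay at percentile 4.22. Slc2a1 was 52.3 times as dense as Abcb1a in replicate 1 and 22.1 times in replicate 2, a ratio that carries the counting error of 10 footprints. Abcb1a has a paralogue, Abcb1b, with the same annotated coding length of 3831 nucleotides and 2 and 25 footprints. How far the sequences of the 2 genes match was not examined here. How fragments that match both were assigned is not given in the sources used here, so the split between them is uncertain. RefSeq's gene models for GRCm38.p6, consulted only for which genes overlap, place Abcb1a across the coding gene Rundc3b. This adds to the uncertainty because the use of strand is not stated. The same models place long non-coding RNA genes across Abcb1a, Cdh5, Flt1, Kdr and Slc2a1, where the same limit applies.

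The 2 libraries differ in depth and come from different animals, so each gene was tested for a difference between them beyond counting noise. The log2 ratio is replicate 2 over replicate 1 after TMM (trimmed mean of M values) scaling, and the test was a two-sided exact binomial test with Benjamini-Hochberg adjustment over 16427 genes. It compares these libraries, not conditions. Of the 10 genes, 1 was called at an adjusted p under 0.05, where 17.4% of all genes tested were called, 11.5% lower and 5.95% higher in replicate 2. The called gene was Cldn5, which was lower in replicate 2 with a log2 ratio of -0.91 (95% interval -1.14 to -0.69) and an adjusted exact binomial p of 1.88e-13. An unadjusted p under 0.05 was found for 4 of the 10, where 27.7% of all genes had one. The median log2 ratio of the 10 genes was -0.02, beside 0.01 for all genes tested, with 5 higher and 5 lower in replicate 2. Cldn5 was also the 1 gene of the set called with DESeq2 size factors (17.4% of genes called), over all genes with a count (9.93%), at a mean count of at least 50 (26.8%) and with the highest transcript per gene (9.41%). It was not called by the edgeR exact test with a common dispersion, where its adjusted p was 1; that test called 0.0670% of genes and none of the 10, with 1 of them at an unadjusted p under 0.05. With library totals in place of TMM, which moves every log2 ratio up by about 0.13, 7 were higher and 3 lower.

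Kdr had a log2 ratio of 0.47 (0.09 to 0.88), Flt1 of 0.43 (0.01 to 0.88) and Tek of 0.43 (-0.17 to 1.11). Their adjusted exact binomial p-values were 0.0691, 0.157 and 0.401, so none was called with TMM. With library totals Kdr and Flt1 were called, at log2 ratios of 0.60 and 0.55 and adjusted exact binomial p-values of 0.0129 and 0.0417, where 19.0% of genes were called. Abcb1a had the highest log2 ratio, 0.90, with a wide interval from -0.01 to 2.10 and an adjusted exact binomial p of 0.183. Cdh5 lay at -0.35, Slc2a1 at -0.28, Esam at -0.08, Pecam1 at -0.07 and Mfsd2a at 0.02, with adjusted exact binomial p-values of 0.191, 0.0972, 0.883, 0.938 and 0.987. With library totals Esam and Pecam1 had log2 ratios above 0, at 0.04 and 0.06.

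**Figure D2:**
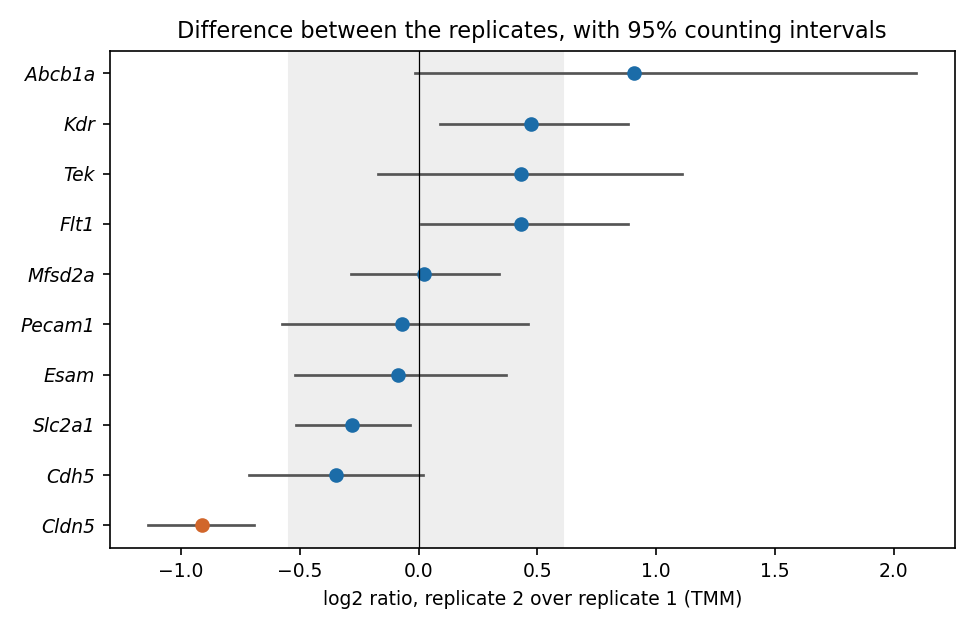
Log2 ratio of replicate 2 over replicate 1 after TMM scaling for each gene, with 95% counting intervals as lines and the central 80% of all genes tested shaded. Cldn5 (orange, called) lies at -0.91, left of the shaded band, and Abcb1a lies at 0.90 with the widest interval.

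Summed by role, the receptors took 0.00804% of the footprints (0.00680 to 0.00943) in replicate 1 and 0.0120% (0.0111 to 0.0130) in replicate 2. The contact genes took 0.0247% (0.0225 to 0.0271) and 0.0181% (0.0170 to 0.0193). Neither pair of intervals overlapped, and the roles differed in opposite directions. These are shares of library totals, the intervals cover counting error only, and no background for sums of genes was computed. After TMM scaling the summed log2 ratios were 0.46 for the receptors and -0.57 for the contact genes, and no receptor was called singly. The contact genes without Cldn5 took 0.0103% (0.00893 to 0.0119) and 0.00983% (0.00900 to 0.0107), so their difference rested on Cldn5. The transporters took 0.0175% and 0.0177%. Without Cldn5 the other 9 genes together took 0.0359% (0.0332 to 0.0387) in replicate 1 and 0.0395% (0.0379 to 0.0413) in replicate 2, and those intervals overlapped.

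The difference between the replicates varied with coding density across all genes, and the 10 genes were read against it. Coding genes were divided into 10 equal bands by density. In the densest band, which holds Cldn5, the median log2 ratio was -0.27 and 52.4% of genes were called lower in replicate 2. In the least dense band, which holds Abcb1a, the median was 0.21. Coding genes with 1 annotated transcript, such as Cldn5 and Cdh5, had a median of -0.28, and 25.5% of the 3436 were called lower. Centred on the median of its own band, Cldn5 had a log2 ratio of -0.64 and remained called, with an adjusted exact binomial p of 5.12e-07 where 19.5% of genes were called. In point values the order of the 10 log2 ratios followed the density only in part. Pecam1 and Kdr have nearly the same density and lay at -0.07 (-0.57 to 0.46) and 0.47 (0.09 to 0.88). Their counting intervals overlapped.

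**Figure D3:**
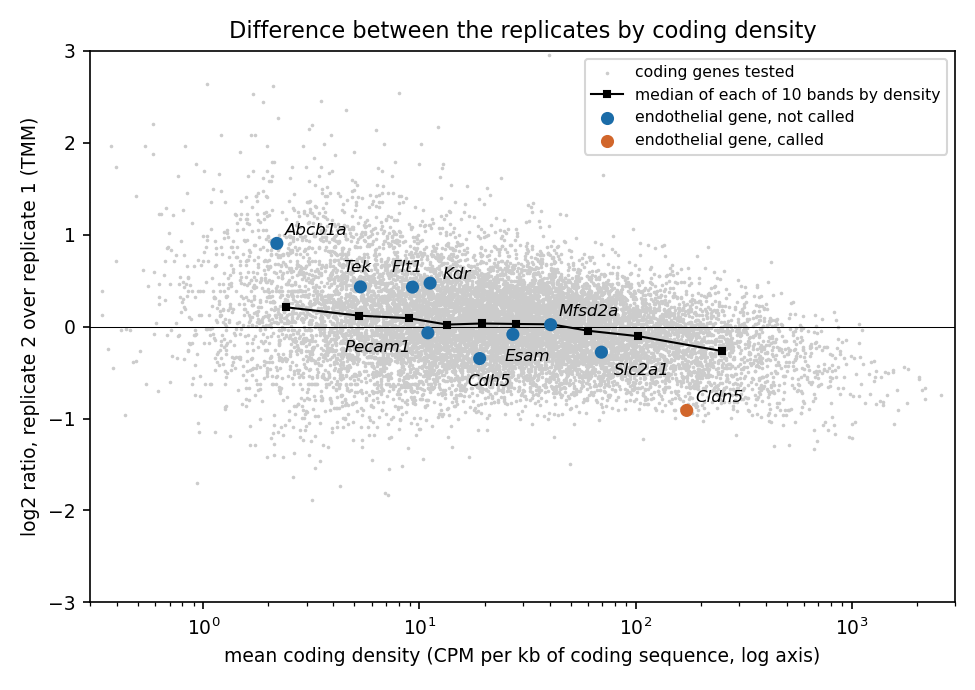
Log2 ratio of replicate 2 over replicate 1 (TMM) against mean coding density on a log axis; each grey point is a coding gene tested, black squares join the medians of 10 bands of genes by density, and 22 genes lie outside the axes. Cldn5 (orange, called) lies below the falling line of medians, while Kdr, Flt1, Tek and Abcb1a lie above it.

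The transcripts that held the footprints differed between the genes. Cldn5 and Cdh5 each have 1 annotated transcript. Slc2a1 had 46.1% ± 0.588 of its footprints (SD, n = 2) on Slc2a1-001, which holds the longest coding sequence, and 33.8% ± 1.16 on Slc2a1-004, a target of nonsense-mediated decay. Mfsd2a had 50.2% ± 4.02 on its longest coding transcript, Mfsd2a-001, and 37.1% ± 5.79 on Mfsd2a-002, which has no annotated coding sequence. Pecam1 was spread over 8 transcripts, of which Pecam1-001 held the most at 26.8% ± 3.90. Tek was spread over 3 coding transcripts with 26.7% to 37.99% each. Transcripts of a gene share exons, so a footprint in a shared exon does not tell which transcript it came from, and shares describe the deposited assignment.

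Flt1 is known to encode a secreted form without the kinase region beside the full receptor. Flt1-001, with a coding sequence of 4002 nucleotides, had 29 and 93 footprints. Flt1-002, with a shorter coding sequence of 2067 nucleotides, had 16 and 66, or 28.6% and 28.3% of the gene's footprints. Flt1-002 was not matched to the secreted form here. Kdr has 1 coding transcript, Kdr-001, which had 46 and 168 footprints, and the retained-intron transcripts Kdr-002 and Kdr-003 had 11 and 50 and 10 and 69.

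Transcripts without an annotated coding sequence took a higher share in replicate 2 in all 7 genes that have any. In the 7728 tested genes with transcripts of both kinds, 55.0% had a higher share in replicate 2. Over the 7 genes together the share was 21.7% (17.6 to 26.2) in replicate 1 and 29.0% (26.6 to 31.5) in replicate 2, and these intervals did not overlap. Over the 7728 genes it was 23.1% and 23.2%. The share was 31.3% and 41.5% in Kdr, 19.6% and 31.8% in Flt1 and 39.1% and 46.0% in Mfsd2a, and in Abcb1a it was 1 of 10 footprints and 14 of 60. Within each of these genes the intervals overlapped. It was 3.39% and 6.43% in Esam, 4.55% and 4.65% in Pecam1, and 0% and 2.65% in Tek. On coding transcripts alone Kdr and Flt1 had log2 ratios of 0.27 and 0.22, and the 1 gene called was again Cldn5, at -0.89 with an adjusted exact binomial p of 6.96e-13 where 18.9% of genes were called.

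**Figure D4:**
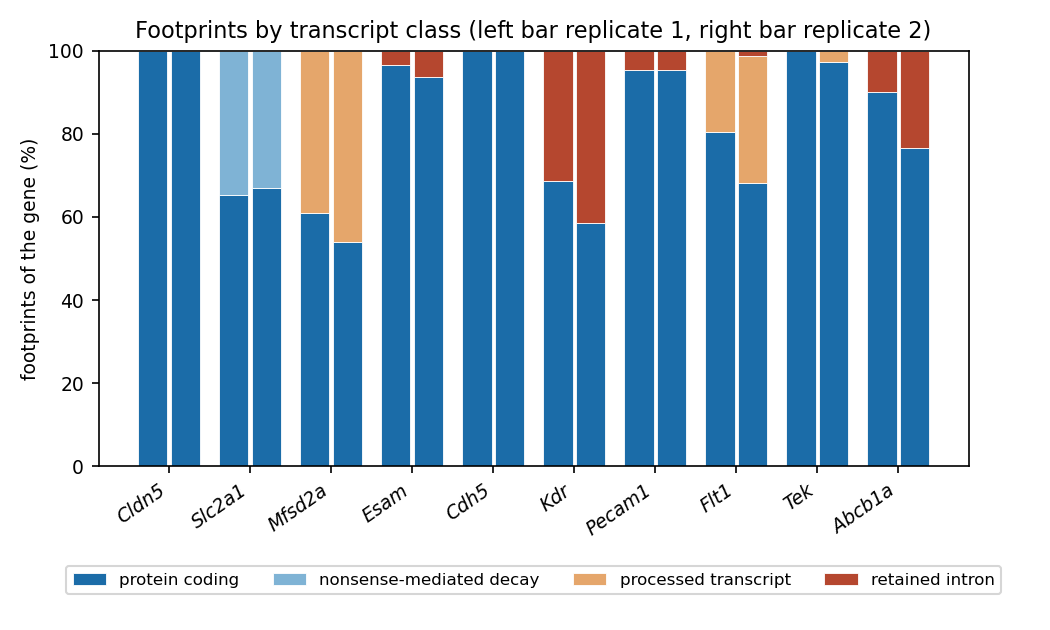
Percent of each gene's footprints on protein-coding, nonsense-mediated decay, processed and retained-intron transcripts, with replicate 1 as the left and replicate 2 as the right bar and genes in order of coding density. Kdr has 31.3% and 41.5% on retained introns, Slc2a1 has about 34% on a decay target in both libraries, and Cldn5 and Cdh5 have a single coding transcript.

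The 26 other endothelial genes examined were all found in both libraries and took 0.0477% and 0.0514% of the footprints, close to the share of the 10 genes. Their median coding density was 11.8 CPM per kb, and 10 of them lay above the median of the 10 genes. Cldn5 and Slc2a1 ranked first and second of the 36 genes together. The densest of the others were Cav1, a coat protein of caveolae, at 56.5 ± 22.1 CPM per kb, and S1pr1, a sphingosine phosphate receptor, at 40.6 ± 2.51 (SD, n = 2). Of the 26, Cav1 was called higher and Cd93 lower in replicate 2, and the median log2 ratio was 0.12. Calls in this list and in those below are read against 11.5% of all genes called lower and 5.95% higher.

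Among 16 junction proteins and their partners, Ctnnb1, which encodes beta-catenin and is made in most cells, was the densest at 478 ± 33.5 CPM per kb. Of 15 tested, 1 was called higher and none lower, and the median log2 ratio was -0.15. The 16 other transporters and receptors of the barrier were led by Slc3a2 at 152 ± 11.4 and Slc7a5 at 145 ± 27.4 CPM per kb, the subunits of an amino acid exchanger. In whole brain these densities cover every cell type that makes the genes, and the endothelial part was not tested. Of these 16, 1 was called higher and 5 lower, with a median of -0.07. Over all genes, 5.95% were called higher and 11.5% lower. Slc3a2 and Slc7a5, both called lower, lay at density percentiles 90.1 and 89.6. In the densest of the 10 bands and the next, 52.4% and 25.8% of genes were called lower.

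The list of ligands and other receptors of the VEGF and angiopoietin pathways also held Dll4, a Notch ligand. It shared Tie1 with the 26 other endothelial genes. The list had a median coding density of 8.11 CPM per kb, with Nrp2 and Vegfb the densest. Vegfb, a ligand of the Flt1 product, had 51 and 74 footprints and was called lower, with a log2 ratio of -1.06 and an adjusted exact binomial p of 0.000878. Of the 11 genes 2 were called, both lower, and the median was -0.16. Over all genes, 11.5% were called lower and 5.95% higher. Vegfa, the main ligand of the Kdr product, had 49 and 198 footprints, and Angpt1, the ligand that activates the Tek product, had 23 and 63. Wnt and norrin signalling genes, which include Ctnnb1 of the junction list, had a median coding density of 13.5 CPM per kb. Of the 15 listed names, 14 were in the table. Of these 14, 1 was called higher and 1 lower, with a median log2 ratio of 0.00. Tcf7, a Wnt effector, had 0 and 20 footprints and a level of 3.80 CPM in replicate 2; with a floor of 3 counts, 0 allows up to 1.61 CPM in replicate 1.

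Genes of the vascular basement membrane had a median of 12.7 CPM per kb, with 1 of 10 called higher and 1 lower and a median log2 ratio of -0.11. Agrn and Nid1 were the densest of them. Markers of pericytes and smooth muscle, which wrap the vessels, took 0.0455% and 0.0431% of the footprints and were led by Rgs5 and Vtn. Of 11 tested, 4 were called lower and none higher in replicate 2, where 11.5% of all genes were called lower and 5.95% higher. Among the 4 was Kcnj8, with only 18 and 22 footprints, a log2 ratio of -1.23 and an adjusted exact binomial p of 0.0322. The median of the list was -0.07.

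**Figure D5:**
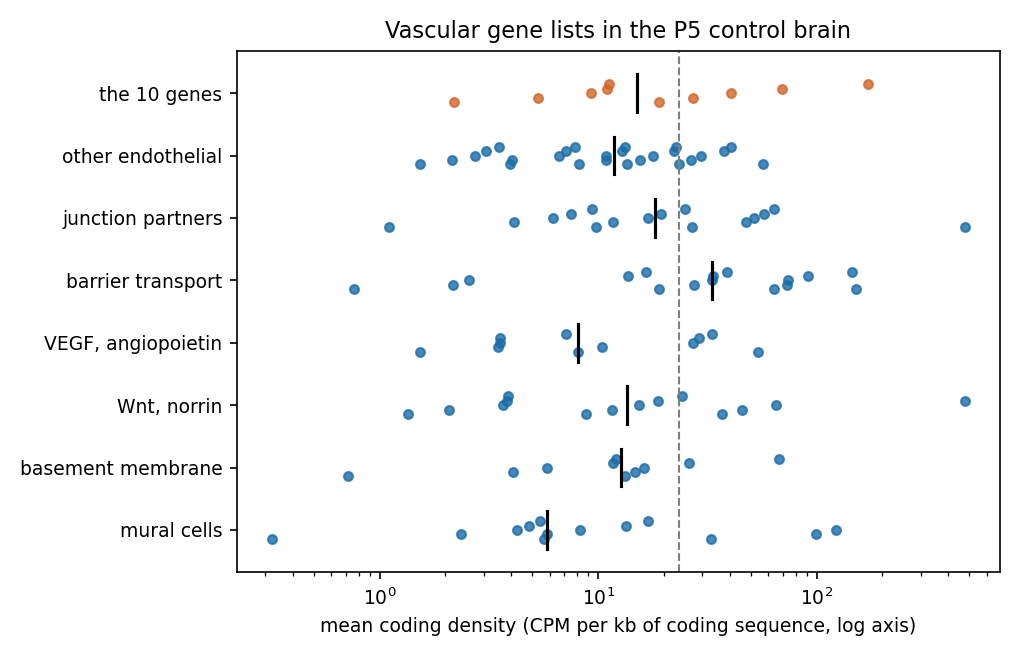
Mean coding density on a log axis in CPM per kb; each point is a gene, the 10 genes are in orange, black bars are medians and the dashed line is the median of all coding genes tested, 23.5. The medians run from 5.83 for mural cells to 33.3 for barrier transport, with 15.1 for the 10 genes. List medians cover every listed gene found, also those under the mean count of 10. Of these, 11 of 13 mural and 15 of 16 junction genes were tested, and the dashed line covers tested genes only. Among tested mural genes the middle one, Notch3, lay at 8.24, beside a VEGF and angiopoietin median of 8.11. Footprints came from whole brain, and which cells made them was not tested. Points are offset vertically for legibility.

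Markers of the other cells of the brain were present in both libraries, apart from 2 of the platelet list named last. Their calls are read against 11.5% of all genes called lower and 5.95% higher in replicate 2, and against 52.4% called lower in the densest of the 10 bands. All 10 neuronal markers were found in both libraries, at 0.584% and 0.465% of the footprints, and 6 were called lower in replicate 2; their median density was 224 CPM per kb. The 8 astrocyte markers took 0.271% and 0.249% with 3 called lower, and the 8 oligodendrocyte markers 0.106% and 0.125% with 2 called higher and 3 lower. The 8 microglial markers took 0.0256% and 0.0268% (1 higher, 2 lower), and the 7 meningeal markers 0.0768% and 0.0708% (1 higher, 2 lower). The 6 choroid plexus markers took 0.0648% and 0.0348% with 1 called lower, Ttr, with 1087 and 1456 footprints. The 5 red cell markers took 0.248% and 0.170% with 4 called lower. The 6 markers of platelets and leukocytes took 0.00252% and 0.00329%, with Gp9 and Ppbp at 0 in replicate 1, and none of the 3 tested was called; 1 of the 3 had a log2 ratio below 0. In the order just given, the median log2 ratios of these lists were -0.37, -0.17, 0.01, -0.19, -0.11, -0.25, -0.69 and 0.15. The part of these cells in the difference of Cldn5 was not tested.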

How the data were processed

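The members and gene lists were chosen with earlier results of these data known. The authors deposited raw counts of footprints per transcript for both replicates, with annotated lengths. Per the labels' protocols, polysome fractions were digested with RNase I and fragments of 25 to 35 nucleotides were sequenced. The submitters' processing notes name Trimmomatic 0.36, Bowtie2 2.2.6, SAMtools and GRCm38.p4, without roles; the counter and the treatment of multiply matching or duplicate fragments are not given in the sources used here.

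Counts were summed per gene. In 61 pairs of equal-length coding transcripts of 1 gene, the squared count difference over the sum averaged 0.961, where 0 means double counting and 1 independent counts. Replicates were compared by an exact binomial test in SciPy 1.17.1 on TMM sizes from edgeR 4.0.16 (factors 0.957 and 1.04), over all genes whose mean count reached 10, with a prior of 0.5 CPM in log2 ratios. The design has no contrast for edgeR's quasi-likelihood test. In simulated data on 16427 genes for this comparison, 66% of changed genes were recovered at 2-fold and 92% at 4-fold, with 3 false calls. Those counts were drawn with counting noise alone, without a spread between animals, and tested on library totals. The few false calls follow from that setting and do not cover differences between animals.

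All 10 genes were named; from each list, the 2 densest genes and those called at 2-fold could be named, and further genes were chosen after their values were seen. RefSeq names matched 10 of 10 genes. Alternatives used DESeq2 1.42.0 size factors, library totals, other filters, lengths and transcript choices.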

Additional observations from a re-analysis of the deposited data

How the results depend on the processing

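No paired analysis was possible because the samples form a single group. Against 1 called gene with TMM, library totals called 3 (Cldn5, Kdr and Flt1). The edgeR exact test with a common dispersion called 0, with 1 gene at an unadjusted p under 0.05. That dispersion comes from the difference between the same libraries, so the test could call few genes by construction. It called 11 of 16427 genes, or 0.0670%. Every other setting tried called Cldn5 alone, and over all settings its adjusted p ran from 1.23e-13 to 1 and its log2 ratio from -0.92 to -0.64. Esam and Pecam1 changed sign with library totals, to 0.0396 and 0.0557. Mfsd2a changed sign on coding transcripts alone (-0.13), on the highest transcript (-0.0689) and when centred on its density band (-0.0037). The share of footprints on the 10 genes was 0.0431% on coding transcripts and 0.0320% on the highest transcript, by construction, and 0.0479% to 0.0502% with either replicate left out. Of the 7 neighbouring pairs with separate replicates, 7 remained separate and in order with the count-weighted coding length, and 5 with transcript length, coding transcripts alone or the highest transcript. Exchanged pairs were Kdr with Pecam1 and with Flt1 (count-weighted length), Mfsd2a with Esam and Kdr with Pecam1 (coding transcripts), and Esam with Cdh5 and Pecam1 with Flt1 (highest transcript). Kdr and Pecam1 exchanged places in replicate 1. By construction, transcript length lowered every density, by 1.56 to 2.204 times in the 6 genes that moved most. The highest transcript lowered the density of the 7 genes that moved most by 1.60 to 3.72 times. It lowered that of Abcb1a less, from 2.19 to 1.77 CPM per kb. With 10 footprints in replicate 1, Abcb1a is limited most by depth.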
